A study of Mus musculus with 8 samples.

Results

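The genes described here are the mouse MHC class I heavy chain genes H2-K1, H2-D1, H2-Q4, H2-Q6, H2-Q7, H2-T10, H2-T22 and H2-T23, and the peptide transporter genes Tap1 and Tap2. They were taken by symbol, and all 10 were found among the 1329 genes of the deposited table. Poly-A RNA was sequenced from the ascending aorta of mice with both Fbn1 alleles of the mgR type, which under-express fibrillin-1 and are used to model Marfan syndrome. One group of 4 libraries came from mice given DT-061, an activator of protein phosphatase 2A, at 5 mg/kg by mouth 2 times daily over 4 weeks, starting at an age of 5 weeks. The other group of 4 libraries came from mgR/mgR mice given the carrier solution (N,N-dimethylacetamide, Kolliphor HS-15 and water) on the same schedule, called vehicle below. All libraries therefore carry the Fbn1 defect, and none from wild-type mice was analysed here. No label says whether each library came from 1 mouse, so the p-values reflect the spread of these libraries, some of which may be technical.

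Class I molecules show peptides from inside the cell to CD8 T cells and to receptors of natural killer cells. Proteasomes cut the peptides, the transporter made of Tap1 and Tap2 moves them into the endoplasmic reticulum, and a heavy chain folds there with β2-microglobulin around a peptide before it travels to the surface. H2-K1 and H2-D1 encode the classical heavy chains, which nearly all nucleated cells make. Genes of the Q and T regions encode non-classical chains. Interferons, nuclear factor κB and the coactivator Nlrc5 raise transcription of the pathway.

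All of these genes lie on chromosome 17 (GRCm38, the assembly of mm10). Promoters of the classical and Q region heavy chains share a compact block with a κB site, known as enhancer A, next to an interferon-stimulated response element. It is shown here as a description of these promoters. The stretches below are RefSeq promoter sequence (GRCm38.p6), and the capitals mark the motifs GGGGATTNC (κB) and TTTCACTT (response element), with ATTGG also in capitals in H2-T22.
H2-K1, chr17:34000430-34000458, minus strand: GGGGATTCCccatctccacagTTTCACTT
H2-D1, chr17:35262923-35262951, plus strand: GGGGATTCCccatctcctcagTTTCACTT
H2-Q4, chr17:35379443-35379471, plus strand: GGGGATTTCccatctccccagTTTCACTT
H2-Q6, chr17:35424677-35424705, plus strand: GGGGATTCCccatctccccagTTTCACTT
H2-Q7, chr17:35439022-35439049, plus strand: GGGGATTCCcatctccccagTTTCACTT
H2-T22, chr17:36042926-36042954, minus strand: gagagtccctaATTGGcttagTTTCACTT

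Compared with the 29 bases of H2-K1, H2-D1 and H2-Q6 differed at 1 base each and H2-Q4 at 2, and the stretch of H2-Q7 was 1 base shorter, at 28. Promoters were found for 8 of the 10 genes, those of H2-T10 and Tap2 not being in the promoter table. Of these 8, GGGGATTNC occurred in 5, TTTCACTT in 6, TGATGAC (within the cyclic AMP response element-like site of class I promoters) in 5 and ATTGG, the inverted CCAAT box, in 8. Over all 32851 promoters of the same length (250 bases before to 50 after the start), searched on both strands, these motifs occurred in 0.749%, 1.60%, 3.23% and 37.4%. No match overlapped another in the stretches printed here. Both of the first pair occurred together in 9 promoters, 6 of which belong to the 5 listed H2 genes (H2-K1 has 2), the others being those of Gm16675, Irf2 and Ubd. The whole block up to the annotated start is given for H2-K1, a classical gene, and for H2-Q7, which changed most here, with the same motifs and TGATGAC in capitals.
H2-K1, chr17:34000348-34000463, minus strand: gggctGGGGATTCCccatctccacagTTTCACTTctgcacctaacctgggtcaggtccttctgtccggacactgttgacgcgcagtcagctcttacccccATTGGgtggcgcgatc
H2-Q7, chr17:35439017-35439154, plus strand: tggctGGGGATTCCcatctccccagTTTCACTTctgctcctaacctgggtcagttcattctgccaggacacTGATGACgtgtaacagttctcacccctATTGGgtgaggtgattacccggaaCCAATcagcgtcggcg
A match describes the letters and does not show that a factor bound there. The searched promoters of H2-T23 and Tap1 held neither GGGGATTNC nor TTTCACTT, and that of H2-T22 held only TTTCACTT of this pair. A link between the motifs and the changes was not tested.

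Depth recovered from the steps between low values was 14100000 to 22200000 fragments per library. The deposited table had been reduced by its authors to genes significant between the groups, so no p-value for these genes is independent evidence, and 95.4% of the table passed the limma test used here (65.0% as lower with DT-061). The level of Myh11, the smooth muscle myosin heavy chain, fitted the tissue label, at 916 to 1356 FPKM with DT-061 and 504 to 728 FPKM with vehicle. Of 12 smooth muscle markers 8 were in the table, which reflects a difference between the groups and not the tissue. The smooth muscle markers moved opposite to the class I genes: all 8 rose (limma; median log2 change 0.75; 6 of 8 with quantile normalization and 7 of 8 without DT-061 library 1, DT-061 library 3 or vehicle library 3) without overlap of the groups, and their summed level, a mean log2(FPKM + 1), was 9.74 to 10.33 with DT-061 and 8.90 to 9.46 with vehicle. Of 24 leukocyte markers 10 were in the table, and their summed level was 0.70 to 1.56 with DT-061 and 1.53 to 3.40 with vehicle, and Xcr1 was listed at 0 in 1 DT-061 library. None of the 10 endothelial markers was in the table. Vehicle library 4 stood apart from its group and DT-061 library 3 had the lowest leukocyte level, so changes with and without vehicle library 4 are given for the 10 genes. In whole tissue, fewer cells of a type and less RNA per cell cannot be told apart, and the part of leukocyte or smooth muscle content in the changes below was not tested.

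All 10 class I and TAP genes were lower in the DT-061 aortas, from 1.45-fold for Tap2 to 3.59-fold for H2-Q7 as ratios of mean FPKM. By limma all 10 fell (adjusted p of 0.017 to 0.023 over the whole table), with a median log2 change of -0.98 against -0.58 over all genes tested; with a median rescaling of the libraries none of the 10 passed (limma adjusted p of 0.089 to 0.81), the changes of H2-T22 and Tap2 being above 0. Under quantile normalization 7 passed, and the change of H2-T10 was above 0. The DT-061 and vehicle values did not overlap in 5 of the 10 (H2-D1, H2-K1, H2-T10, Tap1 and Tap2), where 78.3% of the table did not overlap in either direction and 48.2% did so as lower. Without vehicle library 4 they did not overlap in any of the 10, against 96.2% of the table, and the median log2 change of the 10 was -1.24. In every one of the 10, vehicle library 4 was the lowest vehicle library and vehicle library 1 the highest.

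**Figure D1:**
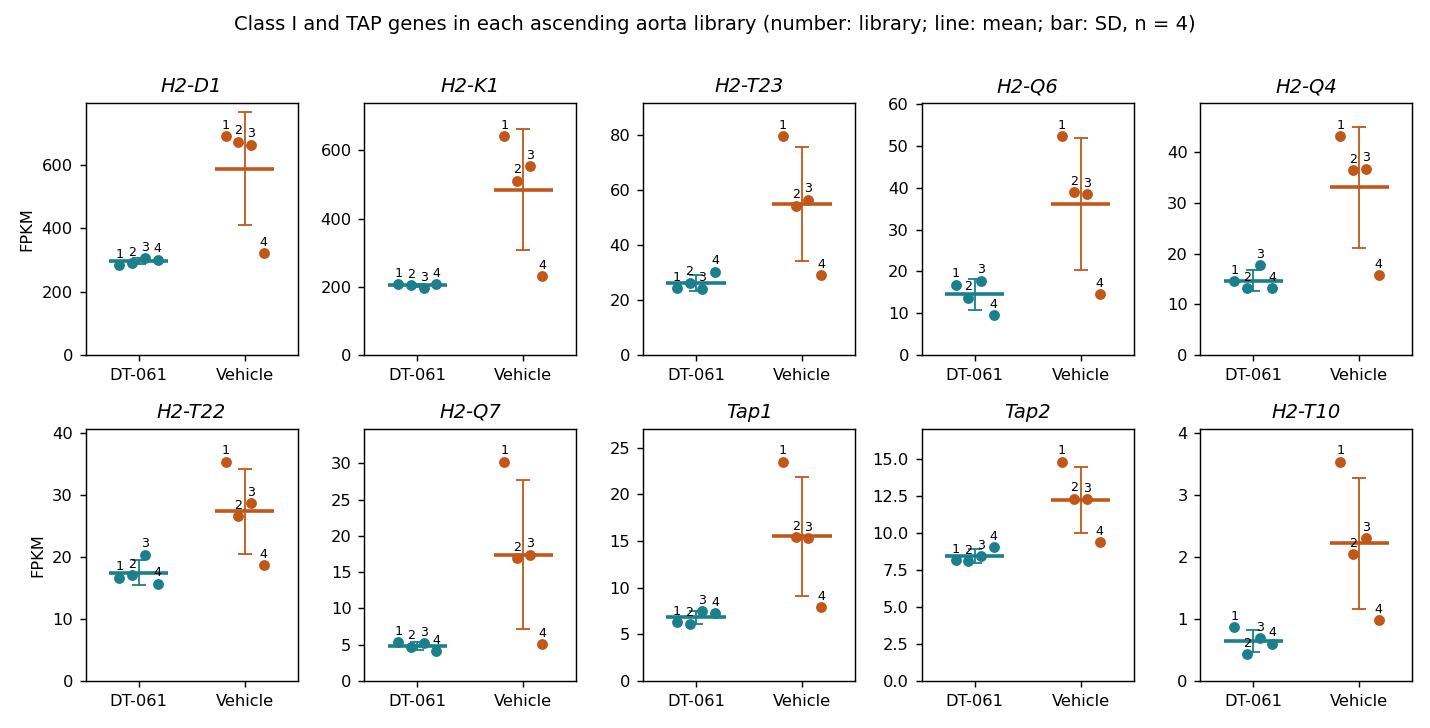
FPKM of the 10 genes in each library (points, numbered by library) of the DT-061 and vehicle groups, with the mean (line) and SD (bar, n = 4); each panel has its own linear axis from 0. Vehicle libraries 1 to 3 lie above all DT-061 libraries in every panel, and vehicle library 4 lies close to the DT-061 values, as in H2-K1 at 232 FPKM against 197 to 208.

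The classical heavy chains were the most abundant of the 10. H2-K1 (ENSMUSG00000061232, chr17:33996017-34000347, minus strand) had 208, 206, 197 and 207 FPKM in DT-061 libraries 1 to 4 and 643, 511, 555 and 232 FPKM in vehicle libraries 1 to 4. The groups did not overlap, but vehicle library 4 was just above the highest DT-061 library. Mean levels were 205 ± 4.93 and 485 ± 178 FPKM (SD, n = 4), a 2.37-fold lower level with DT-061, or 2.78-fold without vehicle library 4. Its log2 change was -1.14 ± 0.29 (SE; by limma, adjusted p = 0.017).

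H2-D1 (ENSMUSG00000073411, chr17:35262730-35267499, plus strand) had 285, 291, 306 and 301 FPKM with DT-061 and 692, 673, 664 and 322 FPKM with vehicle. Vehicle libraries 1 to 3 were within 2.09% of each other (coefficient of variation), as close as the DT-061 libraries at 3.30%, and library 4 was far below them. The means of 296 ± 9.76 and 588 ± 177 FPKM (SD, n = 4) gave a 1.99-fold lower level, or 2.29-fold without vehicle library 4. Its log2 change was -0.92 ± 0.24 (SE; by limma, adjusted p = 0.018).

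The Q region genes encode heavy chains that are related in sequence to the classical ones, some of them anchored by lipid or secreted. H2-Q7 (chr17:35439155-35443773, plus strand), which encodes a chain of the Qa-2 antigen, had 5.34, 4.73, 5.22 and 4.13 FPKM with DT-061 and 30.3, 16.96, 17.4 and 5.05 FPKM with vehicle. Here vehicle library 4 lay inside the DT-061 range, so the groups overlapped. The log2 change of -1.44 ± 0.44 (SE; by limma, adjusted p = 0.021) was the largest of the 10 genes, and without vehicle library 4 it was -1.90.

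H2-Q6 (chr17:35424850-35430055, plus strand) had 16.8, 13.7, 17.8 and 9.65 FPKM with DT-061 and 52.4, 39.0, 38.5 and 14.7 FPKM with vehicle, again with library 4 inside the DT-061 range. Its log2 change was -1.16 ± 0.38 (-1.53 without vehicle library 4), and its call was the weakest of the 10. The limma adjusted p was 0.023 with all libraries, 0.052 without DT-061 library 4, 0.051 without vehicle library 2 and 0.052 without vehicle library 3, with log2 changes of -0.99, -1.08 and -1.09. H2-Q4 (chr17:35379617-35385290, plus strand) had 14.5, 13.2, 17.8 and 13.3 FPKM with DT-061 and 43.3, 36.5, 36.8 and 15.8 FPKM with vehicle, a 2.25-fold lower level, or 2.64-fold without vehicle library 4. Its groups overlapped through vehicle library 4 as well.

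Among the T region genes, H2-T23 (chr17:36029773-36032855, minus strand) encodes Qa-1, the ligand of the CD94 and NKG2A receptor of natural killer cells. It had 24.4, 26.3, 24.2 and 30.3 FPKM with DT-061 and 79.7, 54.3, 56.5 and 29.03 FPKM with vehicle, a log2 change of -0.95 ± 0.27 (SE; by limma, adjusted p = 0.018), and -1.22 without vehicle library 4. Vehicle library 4 lay between DT-061 libraries 2 and 4. H2-T22 (chr17:36037128-36042747, minus strand) encodes a ligand of some γδ T cell receptors. Its values were 16.7, 17.05, 20.4 and 15.7 FPKM with DT-061 and 35.4, 26.6, 28.7 and 18.7 FPKM with vehicle, so DT-061 library 3 was above vehicle library 4. H2-T22 was 1.57-fold lower (1.73-fold without vehicle library 4), less than any other heavy chain by this ratio.

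H2-T10 (chr17:36115876-36121465, minus strand), a close relative of H2-T22 that the annotation lists as a polymorphic pseudogene, was the least abundant, with 0.434 to 0.863 FPKM with DT-061 and 0.982 to 3.54 FPKM with vehicle. These levels rest on about 23 to 196 fragments per library, against 8407 to 33349 for H2-K1. The groups did not overlap and the ratio of means was 3.42-fold (4.06-fold without vehicle library 4), while its log2 change of -0.91 is small for such a ratio because 1 is added to each low value.

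Tap1 (ENSMUSG00000037321, chr17:34187553-34197225, plus strand) had 6.28, 6.13, 7.504 and 7.26 FPKM with DT-061 and 23.5, 15.4, 15.3 and 7.88 FPKM with vehicle. Tap2 (ENSMUSG00000024339, chr17:34203527-34216321, plus strand) had 8.17, 8.08, 8.45 and 9.08 FPKM with DT-061 and 14.8, 12.3, 12.3 and 9.38 FPKM with vehicle. In both genes every vehicle library was above every DT-061 library, by a narrow margin in vehicle library 4. Tap1 was 2.28-fold and Tap2 1.45-fold lower, with log2 changes of -0.997 ± 0.28 and -0.47 ± 0.14 (SE; by limma, adjusted p = 0.018 and 0.019). Without vehicle library 4 these changes were -1.27 and -0.58.

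In FPKM, the order of the 2 transporter subunits differed between vehicle libraries 1 to 3 and the others. That order depends on the length used for each gene: the merged exons span 5476 bases for Tap1 and 3781 for Tap2. Their longest coding transcripts have 2953 and 3442 bases. So only the shift of the difference, not which subunit is more abundant, is read here. Tap1 minus Tap2, in log2(FPKM + 1), was 0.63, 0.30 and 0.29 in vehicle libraries 1 to 3, so Tap1 had the higher FPKM there. It was -0.35 to -0.15 in the DT-061 libraries and -0.23 in vehicle library 4, where Tap2 had the higher FPKM. The group means of this difference were 0.25 ± 0.35 with vehicle and -0.28 ± 0.09 with DT-061 (SD, n = 4), and the groups overlapped through vehicle library 4. Tap1 starts 226 bases from the oppositely oriented immunoproteasome gene Psmb9, by RefSeq starts, so the pair share an upstream region. Psmb9 had 3.03 to 3.75 FPKM with DT-061 and 13.5, 7.95, 8.12 and 3.71 FPKM with vehicle, a log2 change of -0.99 ± 0.31 (SE; by limma, adjusted p = 0.021).

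FPKM is scaled to gene length, so the genes can be ranked by FPKM, but the ranks depend on the length used. The merged exons span 4265 bases for H2-Q7 and 2085 for H2-Q6, while their longest coding transcripts have 1523 and 2085. Apart from the lead of H2-D1 and H2-K1 over the rest, the order is therefore uncertain. By vehicle means the order was H2-D1, H2-K1, H2-T23, H2-Q6, H2-Q4, H2-T22, H2-Q7, Tap1, Tap2 and H2-T10. Neighbours in that order differed by less than the larger of their SDs, other than the step from H2-K1 (485 ± 178 FPKM) to H2-T23 (54.9 ± 20.7 FPKM) and from Tap2 (12.2 ± 2.23 FPKM) to H2-T10 (2.22 ± 1.05 FPKM). With DT-061 the values were tighter: H2-D1 lay above H2-K1 without overlap, and Tap2, Tap1 and H2-Q7 followed each other without overlap, at 8.08 to 9.08, 6.13 to 7.504 and 4.13 to 5.34 FPKM. Within DT-061, H2-T22, H2-Q4 and H2-Q6 overlapped in their ranges.

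The H2 genes resemble one another, so reads could be split between them, but the share of identical sequence was small. Of all 150-base windows in the longest coding transcript of each gene (any transcript for H2-T10), 0% of H2-K1, H2-Q4, Tap1 and Tap2 occurred in a transcript of another gene. The share was 9.68% for H2-Q7 and 5.99% for H2-Q6, each mostly shared with the other, and 0.831% to 1.79% for H2-D1, H2-T10, H2-T22 and H2-T23. By shared sequence, H2-Q6 and H2-Q7 are the least certain of the 10. The windows come from the C57BL/6J reference, and no source used here gives the H2 haplotype of these mice.

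The spread between the DT-061 libraries was small for the classical genes. The classical score, the mean log2(FPKM + 1) of H2-K1 and H2-D1, ran from 7.93 to 7.97 in the 4 DT-061 libraries. In the same libraries the class II score of H2-Aa, H2-Ab1, H2-Eb1 and Cd74, the genes for peptide presentation to CD4 T cells, ran from 5.49 to 6.85. The low end was DT-061 library 3. That library had 3.08 FPKM of the leukocyte gene Cd52, against 14.1 to 22.9 FPKM in the other DT-061 libraries, and 26.4 FPKM of H2-Aa against 75.8 to 81.4 FPKM. It had the highest DT-061 value in 5 of the 10 class I and TAP genes and the lowest in 2. The mean log2(FPKM + 1) of all 10 spanned only 0.16 over the DT-061 libraries. The coefficients of variation within DT-061 were 2.41% to 27.6% for the 10 genes, with a median of 11.1%, against a median of 22.3% over the 1101 table genes with a mean of at least 1 FPKM and 31.4% to 40.2% for the 4 class II genes. Vehicle libraries 1 to 3 did not show such a gap to the table: there the median was 16.7% for the 10 genes (2.09% to 35.0%) against 18.7% over the same table genes. The 4 class II genes had 26.4% to 28.6% in those libraries. This spread does not use the contrast that selected the table, though genes with little spread were more likely to be selected.

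**Figure D2:**
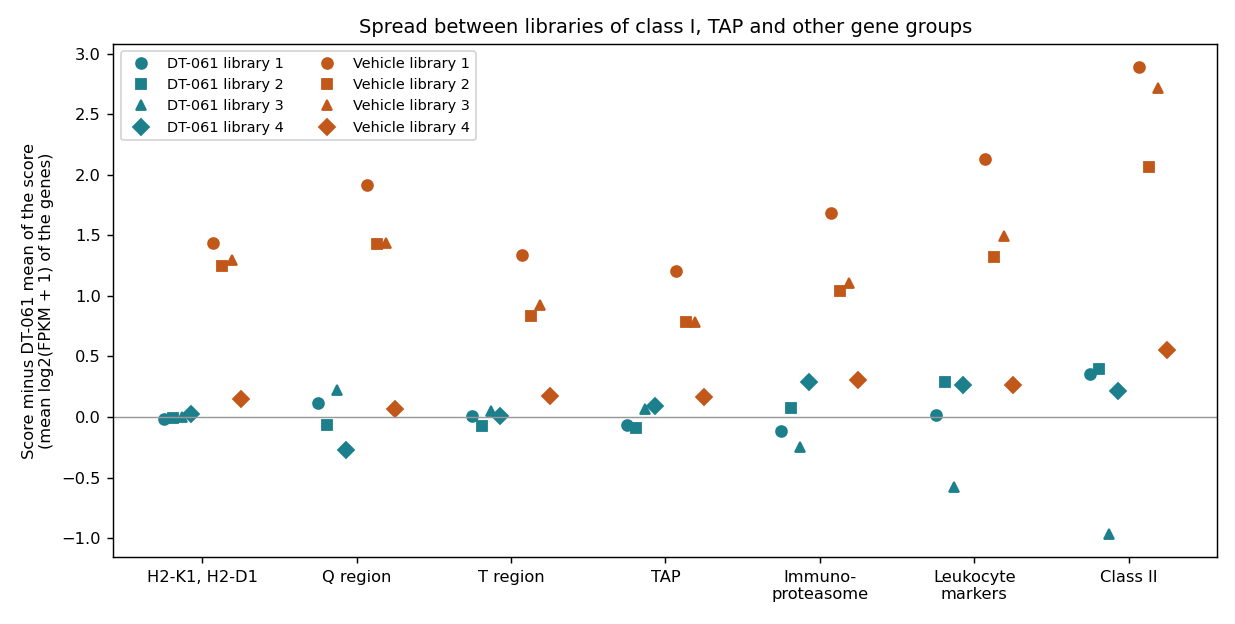
Score of each gene group in each library, as mean log2(FPKM + 1) minus the DT-061 mean of that score; symbols give the library number and colour the group. The 4 DT-061 libraries nearly coincide for H2-K1 and H2-D1, while DT-061 library 3 lies lowest for the leukocyte and class II scores, and vehicle library 4 lies near the DT-061 libraries in all 7 groups.

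In all 10 genes vehicle library 4 sat near the treated libraries. On the log2(FPKM + 1) scale, with the DT-061 mean at 0% and the mean of vehicle libraries 1 to 3 at 100%, it stood at 2.71% (H2-Q7) to 24.3% (H2-T10), with a median of 11.9% over the 10 genes. The median over the other 673 lowered genes with a mean of at least 1 FPKM was 38.3%. The class II score stood at 21.7% and the leukocyte score at 15.96% on the same scale. The score of 5 T cell and natural killer cell genes among the leukocyte markers stood at 2.80%. In the smooth muscle score, vehicle library 4 stood at 83.7%, close to the other vehicle libraries.

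Parts of the class I pathway differed from each other by less than the 0.96 by which the mean of all 10 was lower. The gap between classical class I and class II was 1.02. With 1 library left out it ran from 0.70 (without DT-061 library 3) to 1.23 (without vehicle library 4). TAP minus classical class I was -4.85 ± 0.08 with DT-061 and -5.15 ± 0.24 with vehicle (mean log2(FPKM + 1), SD, n = 4). The groups overlapped through vehicle library 4, at -4.84. The mean of Tap1 and Tap2 thus differed less between groups, which lay in Tap2, with a log2 change of -0.47. Tap1 changed by -0.997, between H2-D1 (-0.92) and H2-K1 (-1.14). H2-K1 minus H2-D1 was -0.63 to -0.45 with DT-061 and -0.47 to -0.11 with vehicle, where library 4 gave the lowest vehicle value. Classical class I minus B2m was -1.34 to -1.11 with DT-061 and -1.28 to -0.97 with vehicle, and the group means of this difference were 0.10 apart, about the SD with DT-061 (0.10) and below that with vehicle (0.16). As DT-061 minus vehicle, that gap ran from -0.15 (without vehicle library 4) to -0.05 (without vehicle library 1) with 1 library left out. Classical class I minus class II was 1.09 to 2.46 with DT-061 and 0.04 to 1.09 with vehicle; the change was larger for class II, and DT-061 library 2 and vehicle library 4 were equal to within the last digit given. These differences carry no test, because the genes come from a table selected on the same contrast.

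Of 84 other genes listed for the class I pathway, 22 were in the table and all 22 fell by limma (adjusted p under the 0.05 threshold), with a median log2 change of -0.96; the background of lower calls is 65.0%. With a median rescaling 11 of the 22 were called lower and with quantile normalization 7, and Hspa5, Tpp2, Irf1 and Pira2 turned to higher under one or both. The groups were free of overlap in 14 of the 22, where the table's shares were 78.3% in either direction and 48.2% as lower. The light chain gene B2m had 618, 581, 531 and 611 FPKM with DT-061 and 1309, 1427, 1237 and 665 FPKM with vehicle, a 1.98-fold lower level, next to 1.99-fold for H2-D1. Its groups did not overlap. Vehicle library 2 was the highest, unlike in the heavy chains.

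Of 20 further class I and class I-like genes, H2-Q5, H2-Q10, H2-T24, H2-K2 and H2-M2 were in the table, and H2-Q5 and H2-K2 are annotated as pseudogenes. H2-Q5 had 3.10 to 4.59 FPKM with DT-061 and 4.66 to 21.97 FPKM with vehicle. H2-Q10 and H2-M2 were below 3 FPKM everywhere, and H2-M2 was listed at 0 in DT-061 library 3. The calls of H2-T24 and H2-K2 were not stable: that of H2-T24 ended on leaving out any library other than vehicle library 4 (limma adjusted p of 0.063 to 0.11), and that of H2-K2 on leaving out any but DT-061 library 4 or vehicle library 4 (0.062 to 0.084). H2-Q10 lost its call without any 1 DT-061 library or without vehicle library 2 (0.062 to 0.094). Without vehicle library 1, the log2 changes of H2-T24, H2-K2 and H2-Q10 shrank from -0.92, -1.06 and -0.69 to -0.57, -0.69 and -0.40.

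The 3 catalytic immunoproteasome subunits, which replace the standard ones under interferon, all fell. Psmb8 had 4.13, 5.74, 4.66 and 7.62 FPKM with DT-061 and 23.4, 13.8, 15.8 and 7.28 FPKM with vehicle, so the groups overlapped at DT-061 library 4. Psmb10 had 11.5 to 20.2 FPKM against 22.1 to 43.8 FPKM, with no overlap. The standard subunits Psmb5, Psmb6 and Psmb7 and the activators Psme1 and Psme2 were looked up and were not in the table. It holds only genes that differed between the groups, so this does not show their level. Of 13 genes of peptide loading, folding and trimming, the chaperone gene Hspa5 and the peptidase gene Tpp2 were in the table, with log2 changes of -0.76 ± 0.25 and -0.41 ± 0.11 (SE). Hspa5 had 454 FPKM in vehicle library 1 against 198 to 238 FPKM in the other vehicle libraries, and its change without that library was -0.50.

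Regulators of class I transcription in the table, 4 of 21 listed, all fell. Nlrc5, the coactivator of class I promoters, had 1.24, 1.11, 0.684 and 1.46 FPKM with DT-061 and 7.25, 3.43, 3.91 and 1.57 FPKM with vehicle, a 3.60-fold lower level with no overlap (log2 change -1.14 ± 0.34, SE; by limma, adjusted p = 0.020). Irf1, a transcription factor of the response element, had 13.2 to 15.1 FPKM against 15.6 to 28.4 FPKM. Irf8, a factor of myeloid cells, had 2.89, 4.09, 1.17 and 3.98 FPKM with DT-061 and 23.2, 14.6, 12.9 and 5.61 FPKM with vehicle. Nlrc5 and Irf8 were lowest in DT-061 library 3, and Irf1 was highest there among the DT-061 libraries. Irf7, a factor of the type I interferon response, changed by -1.77 ± 0.50 on the log2 scale, and vehicle library 4 at 12.1 FPKM was below DT-061 library 4 at 14.8 FPKM.

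Receptors that recognise class I are carried by lymphocytes and myeloid cells, and 7 of 19 were in the table. All 7 fell, and all but Pirb were below 6 FPKM in every library. The CD8 chain gene Cd8b1 had 0.0479 to 0.992 FPKM with DT-061 and 0.699 to 5.62 FPKM with vehicle, and its call ended on leaving out DT-061 library 1, 3 or 4 (limma adjusted p of 0.054 to 0.056). The killer cell genes Klrd1, Klrc1, Klrk1 and Klra2 were each at or below 0.697 FPKM with DT-061, and Klrc1 was listed at 0 in 2 of those libraries. Klrd1, the CD94 chain that binds Qa-1, had 4.37, 2.89, 2.18 and 0.0771 FPKM with vehicle, and its call ended on leaving out any library other than vehicle library 4 (0.063 to 0.089). The inhibitory receptor gene Pirb had 4.32, 5.55, 0.811 and 6.77 FPKM with DT-061, lowest in library 3, and 8.76 to 23.2 FPKM with vehicle. The activating relative Pira2 was below 1 FPKM in every library.

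**Figure D3:**
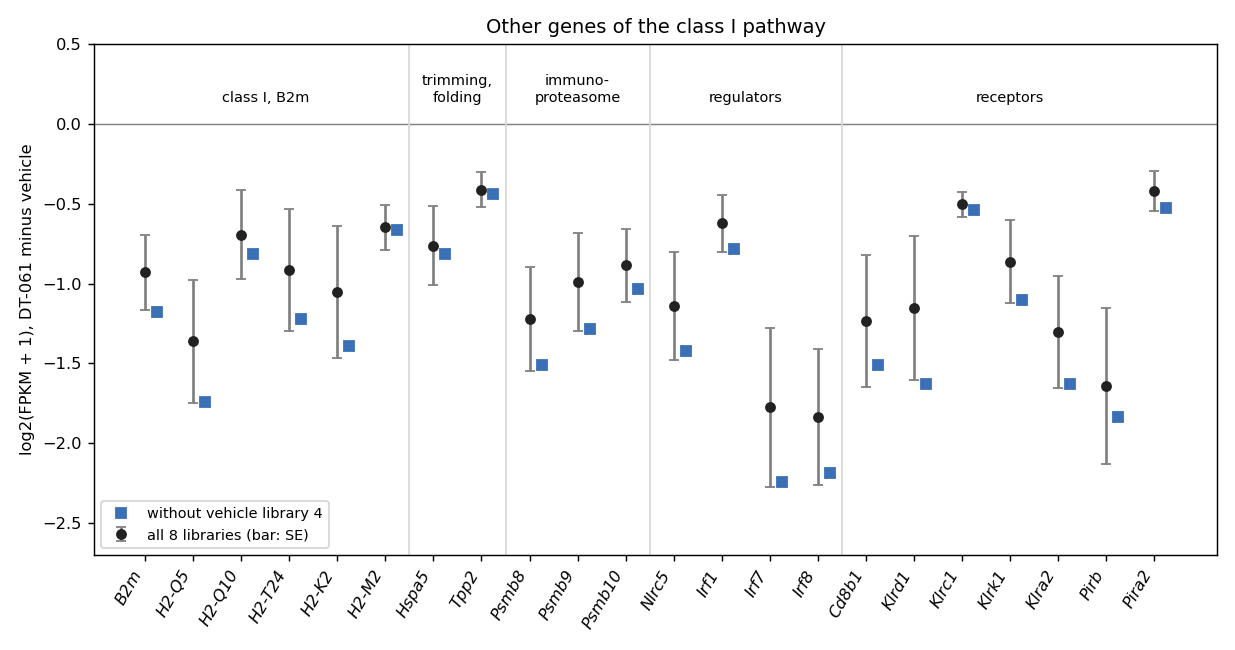
Change in log2(FPKM + 1), DT-061 minus vehicle, of the 22 other class I pathway genes with all 8 libraries (circles, bar: SE) and without vehicle library 4 (squares). All lie below 0 in the values as deposited; with a median rescaling of the libraries Hspa5, Tpp2 and Irf1, and with quantile normalization Tpp2 and Pira2, turned to higher.

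Deviations from the group mean, which do not use the contrast that selected the table, were similar across the 10 genes. Over the 8 libraries, Pearson's r between pairs of the genes was 0.76 to 0.98, with a median of 0.92 over 45 pairs. Much of this came with vehicle library 4: without it the median was 0.67 and the lowest value, for H2-Q6 and H2-T23, was -0.04. The other table genes had a median r of 0.44 with the mean deviation of the 10 genes, or 0.24 without vehicle library 4. Of 1000 other protein coding genes with a mean of at least 1 FPKM, 46 had an r above 0.9 with that mean deviation, or 8 without vehicle library 4. The most alike of the 1000 were Sirpb1a, Nkg7, Prex1, Evl, Klrd1 and Sept1, at r of 0.96 to 0.97 over 8 libraries. Without vehicle library 4 their r was 0.67 for Klrd1, 0.68 for Nkg7, 0.83 for Sirpb1a, 0.84 for Prex1, 0.89 for Sept1 and 0.90 for Evl. All genes of a library share its depth and scaling, and the values are a description.

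The direction of the changes of H2-T10, H2-T22 and Tap2, and the calls of the 10 genes, depended on how the libraries were scaled. Rescaling each library to the same median over the table moved the median change of all genes by 0.45, and quantile normalization moved it by 0.63. The abundant H2-D1 moved further under the median rescaling, from -0.92 to -0.07. The median change of the 8 smooth muscle markers moved from 0.75 to 1.60 under it. Both scalings assume balanced rises and falls, which a selected table may lack. With quantile normalization 7 of the 10 genes still fell, where 15.7% of the table was called lower: H2-D1, H2-K1, H2-Q4, H2-Q6, H2-Q7, H2-T23 and Tap1. H2-T22 (limma adjusted p = 0.051) and Tap2 did not pass, and H2-T10 turned to 0.03. With the median rescaling none of the 10 passed (limma; 0 of 10 also at an unadjusted p under 0.05; adjusted p of 0.089 to 0.81), where 22.5% of the table was called lower. Log2 changes there ran from -0.67 for H2-Q7 to 0.23 for H2-T22 and 0.31 for Tap2.

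**Figure D4:**
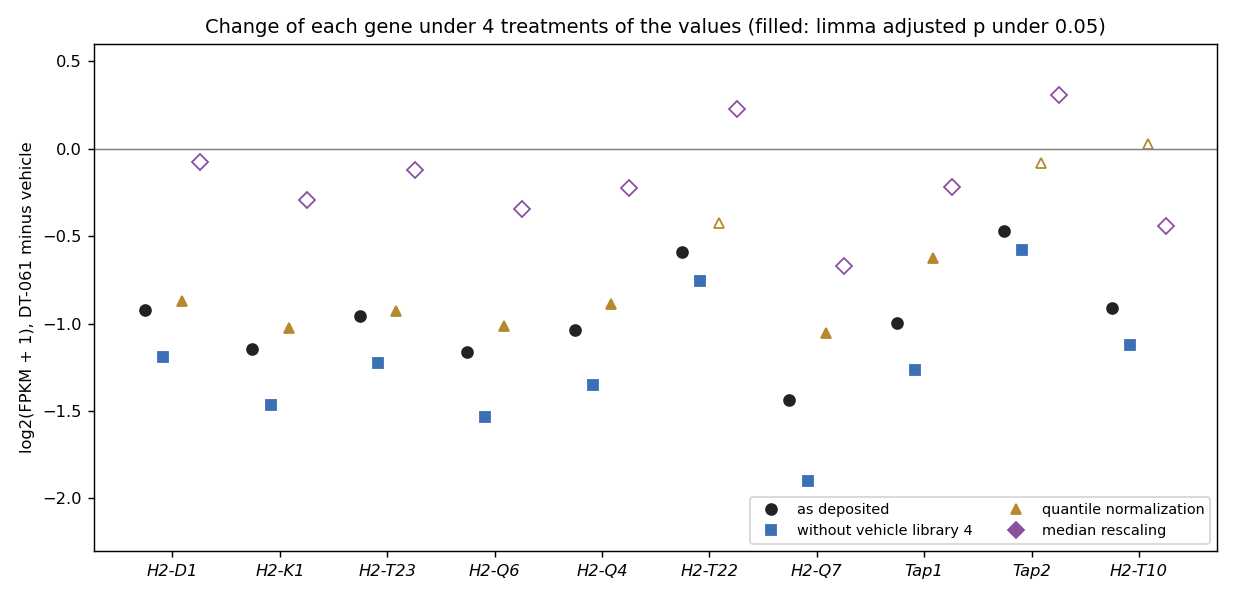
Change in log2(FPKM + 1), DT-061 minus vehicle, of each of the 10 genes as deposited, without vehicle library 4, with quantile normalization and with a median rescaling; filled symbols passed limma at an adjusted p under 0.05. As deposited all 10 are below 0; H2-T10 is above 0 with quantile normalization, and H2-T22 and Tap2 are above 0 with the median rescaling.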

How the data were processed

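The authors deposited 1 table of FPKM, that is, fragments scaled to gene length and library size. Per the submitters' processing notes, the tools were featureCounts 1.5.0-p3, HISAT2 2.0.5 and StringTie 1.3.3b, with build mm10 and no roles stated. Neither the strand setting nor the tool and threshold that reduced the table to 1329 genes is stated in a source used here. Symbols were matched for 1328 genes, with coordinates and exonic lengths from GENCODE M21 (GRCm38). Fragments per library came from the whole-number steps of FPKM times length (multiples up to 60, tolerance 0.03). At the step chosen, 85.3% to 100% of 26 to 41 low values per library were whole. Group means were compared with limma 3.58.1 (trend, robust; R 4.3.3) on log2(FPKM + 1), with the treatment term alone, Benjamini-Hochberg adjusted over the table (threshold 0.05). Genes past that adjusted p are said to have risen or fallen. The procedure was tested on simulated data. Named were the 10 genes, the class I pathway genes found in the table, and the 6 genes most alike within groups; of marker lists, counts, scores and the most abundant. 1 pathway gene is not reported here and was left out of the lists. H2-Aa, Cd52 and Myh11 were picked after their values were seen. Members, lists and motifs were chosen with earlier results of these data known. The alternatives comprised leaving out libraries, 2 scalings, a replicate block, plain limma, a filter at a mean FPKM of 1 and a pseudocount of 0.1.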

Additional observations from a re-analysis of the deposited data

Results flagged for a closer look

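In a search over both groups of each of the 32 class I, TAP and pathway genes (64 groups), 4 groups of 4 libraries held 1 value whose gap to the nearest of the other 3 was past Dixon's critical value, where chance gives about 1 in 20. H2-D1 in vehicle library 4 was 322 FPKM while vehicle libraries 1 to 3 had 664 to 692, with a gap of 0.925 of the range. Hspa5 in vehicle library 1 was 454 FPKM (0.845). H2-K2 in DT-061 library 4 was 3.50 FPKM against 1.71 to 1.92 in the others (0.879). Cd8b1 in DT-061 library 2 was 0.992 FPKM (0.895).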

How the results depend on the processing

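All 10 class I and TAP genes kept their direction and call under plain limma (no trend or robust option), a filter at a mean FPKM of 1, a pseudocount of 0.1, and on leaving out vehicle library 4 and DT-061 library 3 at once. With 1 library left out, 9 to 10 of the 10 and 17 to 22 of the 22 other pathway genes were called lower. Over the table, 404 genes were called higher and 864 lower; leaving out 1 library gave 254 (without vehicle library 3) to 351 higher and 652 to 881 lower. With the median rescaling 299 genes of the table, 0 of the 10 and 11 of the 22 were called lower; H2-T22, Tap2, Hspa5, Tpp2 and Irf1 turned to 0.226, 0.309, 0.0858, 0.342 and 0.186. With quantile normalization 209 genes and 7 of the 22 were called lower; H2-T10, Tpp2 and Pira2 turned to 0.0299, 0.129 and 0.0528. The causes were not tested. No label says that the replicate numbers pair the libraries. Deviations of same-numbered libraries correlated at 0.18, -0.11, -0.05 and -0.47 over genes, which cannot show whether they were paired. With the number as a replicate block, 204 genes were called higher and 630 lower, and of the 10 genes Tap2 lost its call (limma adjusted p = 0.051). With a pseudocount of 0.1, T region minus classical class I turned from 0.215 to -0.0065, and all 10 genes minus leukocyte markers moved from 0.34 to 1.03; the latter was 0.12 without DT-061 library 3. Depth limits H2-T10 and the receptor genes, several of which rest on few fragments.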
